A study of Homo sapiens with 12 samples.

Results

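A set of 10 genes known as marks of injured or poorly repaired proximal tubule was followed in HK-2 cells given a nephrotoxin, with or without knockdown of the RNA polymerase II gene POLR2A. The 10 genes (HAVCR1, LCN2, SPP1, CLU, VCAM1, SOX9, SOX4, PROM1, TIMP1 and PAX8) were taken by name from the 35238 genes in the table, with no threshold on their values. HK-2 is an established human proximal tubule line immortalised with papillomavirus oncogenes. All cells were transfected with 10 nM of a short interfering RNA, either a scrambled control (SCR) or one against POLR2A (siB). The same cells received, from the time of transfection and for 24 hours, either the vehicle DMSO or aristolochic acid I (AAI) at 25 µM, a plant compound that damages DNA in tubule cells. There were 4 groups of 3 libraries (SCR DMSO, SCR AAI, siB DMSO and siB AAI), made from poly-A RNA. Groups and replicate numbers came from the sample titles, since a treatment label read DMSO for every sample. Nothing in the labels stated that replicates were separate cultures, so p-values measured only the spread between these libraries, which may be technical.

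Proximal tubule cells that are injured lose their transport programme and switch on a shared set of genes. HAVCR1 (KIM-1) and LCN2 (NGAL) are the classical injury biomarkers, SOX9 and SOX4 are transcription factors of tubule repair and development, and VCAM1 marks cells that fail to complete repair in the kidney. PROM1 (CD133) is a surface mark of scattered, progenitor-like tubule cells, and PAX8 is the transcription factor that keeps kidney epithelial identity.

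Depth ran from 15844015 to 42805294 reads per library. Levels are given as CPM, reads scaled to a library total of 1000000, and 3 reads, the limit that a count of 0 allows, were 0.0701 to 0.189 CPM. Such limits cover counting error only, because PCR makes several reads of 1 molecule. POLR2A, the target of the siRNA, was at 258, 288 and 306 CPM in SCR DMSO and 138, 143 and 139 CPM in siB DMSO. With AAI it was at 673, 719 and 729 CPM in SCR cells and at 266, 220.4 and 210.3 CPM in siB cells, so knocked-down libraries lay below their SCR counterparts under both treatments. SCR DMSO replicate 2, the deepest library, stood apart on the second principal component (-62.2, against 57.8 and 20 for the other replicates of its group), and results that rest on it are given without it. Of 11 proximal tubule markers, 3 had a mean of at least 1 CPM (GGT1 at 134, SLC5A2 at 10.2 and SLC34A1 at 1.19 CPM), whereas the organic anion transporter genes SLC22A6 and SLC22A8 averaged 0.00526 and 0.00195 CPM. The epithelial markers EPCAM, CDH1, KRT8 and KRT18 were all present. The label of a proximal tubule line thus held for epithelium, while several defining markers of mature tubule were near 0.

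A change is given on log2 of CPM plus 1, with the standard error (SE) from limma and an adjusted p over all genes tested, and a gene was called at an adjusted p under 0.05 and at least 2-fold. Adding 1 CPM understates the change of genes with low levels. For the interaction (the AAI change in siB cells minus that in SCR cells) the adjusted p alone was used. In bulk RNA, fewer cells of a type and less RNA per cell cannot be told apart.

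The regions before the start of SOX4, HAVCR1 and PROM1 are shown because these 3 genes had the largest changes with AAI. Each is 250 bases of hg38, read 5′ to 3′ on the gene's strand and ending just before an annotated GENCODE start. They lie at chr6:21593501-21593750 (plus strand), chr5:157059120-157059369 (minus strand) and chr4:16084379-16084628 (minus strand, before the outermost of several PROM1 starts). Capitals mark CCAAT on either strand, where ATTGG is the same motif on the other strand.
SOX4: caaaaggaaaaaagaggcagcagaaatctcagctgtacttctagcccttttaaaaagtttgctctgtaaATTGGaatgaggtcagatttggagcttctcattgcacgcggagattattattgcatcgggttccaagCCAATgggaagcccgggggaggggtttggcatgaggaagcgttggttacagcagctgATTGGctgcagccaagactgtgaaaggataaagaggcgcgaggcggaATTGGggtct
HAVCR1: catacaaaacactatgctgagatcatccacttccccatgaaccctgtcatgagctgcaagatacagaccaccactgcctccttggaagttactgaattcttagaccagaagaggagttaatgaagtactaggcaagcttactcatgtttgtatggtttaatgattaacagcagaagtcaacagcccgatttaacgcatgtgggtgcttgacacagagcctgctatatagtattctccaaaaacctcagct
PROM1: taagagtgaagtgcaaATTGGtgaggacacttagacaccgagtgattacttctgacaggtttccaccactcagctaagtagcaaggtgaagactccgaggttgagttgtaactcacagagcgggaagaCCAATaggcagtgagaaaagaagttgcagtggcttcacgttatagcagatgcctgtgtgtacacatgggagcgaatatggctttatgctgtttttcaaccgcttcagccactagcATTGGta

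SOX4, which fell with AAI, held 4 CCAAT matches in this window, and PROM1, which rose, held 3. HAVCR1 held none. Of 35116 RefSeq promoters (GRCh38.p14) with windows of the same length, 32% held at least 1 match, 2.93% at least 3 and 0.874% at least 4. None of the 3 windows held, on either strand, the TATA box TATAAA (in 10.7% of these promoters), the GC box GGGCGG (42.6%), the AP-1 motif TGANTCA (6.57%) or the E-box CACGTG (6.34%). A match is a description of the letters and was not tested for binding.

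All 10 genes were measurable by the rule used, 1 CPM or more in 3 or more of the 12 libraries, but they fell into a well-measured and a barely measured group. Compared per kilobase of exon, SPP1 was the most abundant, at a mean of 256 CPM per kb over the 12 libraries, followed by TIMP1 (142 CPM per kb), PAX8 (46.3 CPM per kb), HAVCR1 (23.1 CPM per kb), SOX4 (21.3 CPM per kb) and CLU (9.03 CPM per kb). The other 4 were low, with LCN2 at 1.44, SOX9 at 0.896, VCAM1 at 0.4002 and PROM1 at 0.227 CPM per kb. The ranges of HAVCR1 and SOX4 per kb overlapped in SCR DMSO, where their order was within the spread between libraries. PROM1 reached 1 CPM in 6 libraries, the AAI ones, and was at or under 3 reads in 3 DMSO libraries. No gene of the set was unmeasurable, but in DMSO PROM1 was at the edge of detection, with 2 to 11 reads per library. Counting by strand was not stated, and SPP1, SOX9, SOX4, TIMP1 and PAX8 overlap a gene on the opposite strand, whose reads cannot be told apart from theirs.

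**Figure D1:**
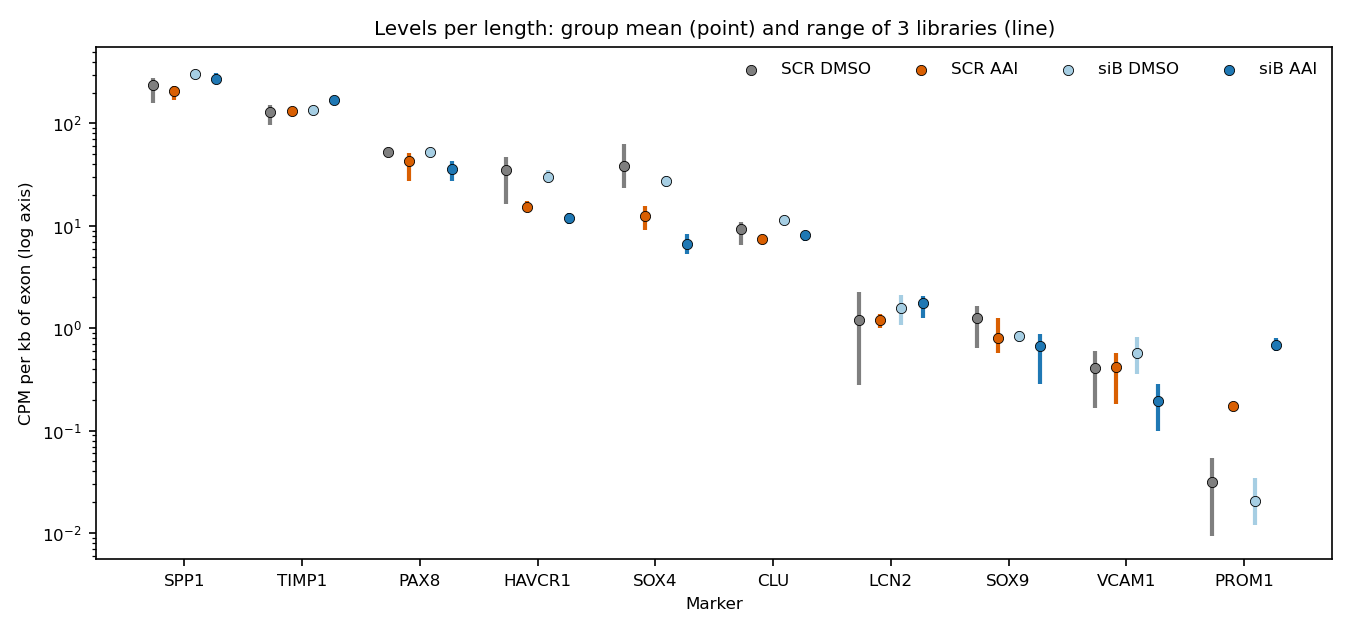
Levels of the 10 markers in CPM per kb of exon (log axis), with the mean of each group as a point and the range of its 3 libraries as a line. SPP1 and TIMP1 lie highest, LCN2, SOX9, VCAM1 and PROM1 lie lowest, and PROM1 spreads most between groups.

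With AAI in SCR cells, 1 of the 10 markers was called (SOX4, lowered), beside 10.5% of all 14228 genes tested. With the replicate number as a block, 2 were called (SOX4 and HAVCR1, both lowered), and 1917 genes in place of 1489. In siB cells 4 were called (SOX4, HAVCR1 and VCAM1 lowered, PROM1 raised), beside 19.7% of 14928 genes. Of these, PROM1 reached 1 CPM in no siB DMSO library and was tested through siB AAI alone, so it had to differ. Knockdown under AAI gave 1 called marker (PROM1, raised), beside 3.67% of 14946 genes. Knockdown under DMSO gave 0 of 9 tested markers and 0 of 13606 genes with limma (0%), where 644 genes had an unadjusted p under 0.05. Without SCR DMSO replicate 2 it was 2754 genes, with 0 called and a lowest adjusted p of 0.0535. With all libraries POLR2A itself was not called under DMSO (-1.015, limma adjusted p 0.505), although its groups did not overlap. The 0 calls thus do not show that knockdown had no effect. The comparisons share groups of libraries and are not independent. The median change of the markers with AAI was -0.22 in SCR and -0.40 in siB cells, against 0.18 and 0.10 for all genes tested. Rescaling by median-ratio size factors moved the median of all genes by 0.19 in SCR and by 0.11 in siB cells, to -0.01 in each. Raised genes made up 73.9% of called genes in SCR cells as deposited and 56.9% after that rescaling.

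**Figure D2:**
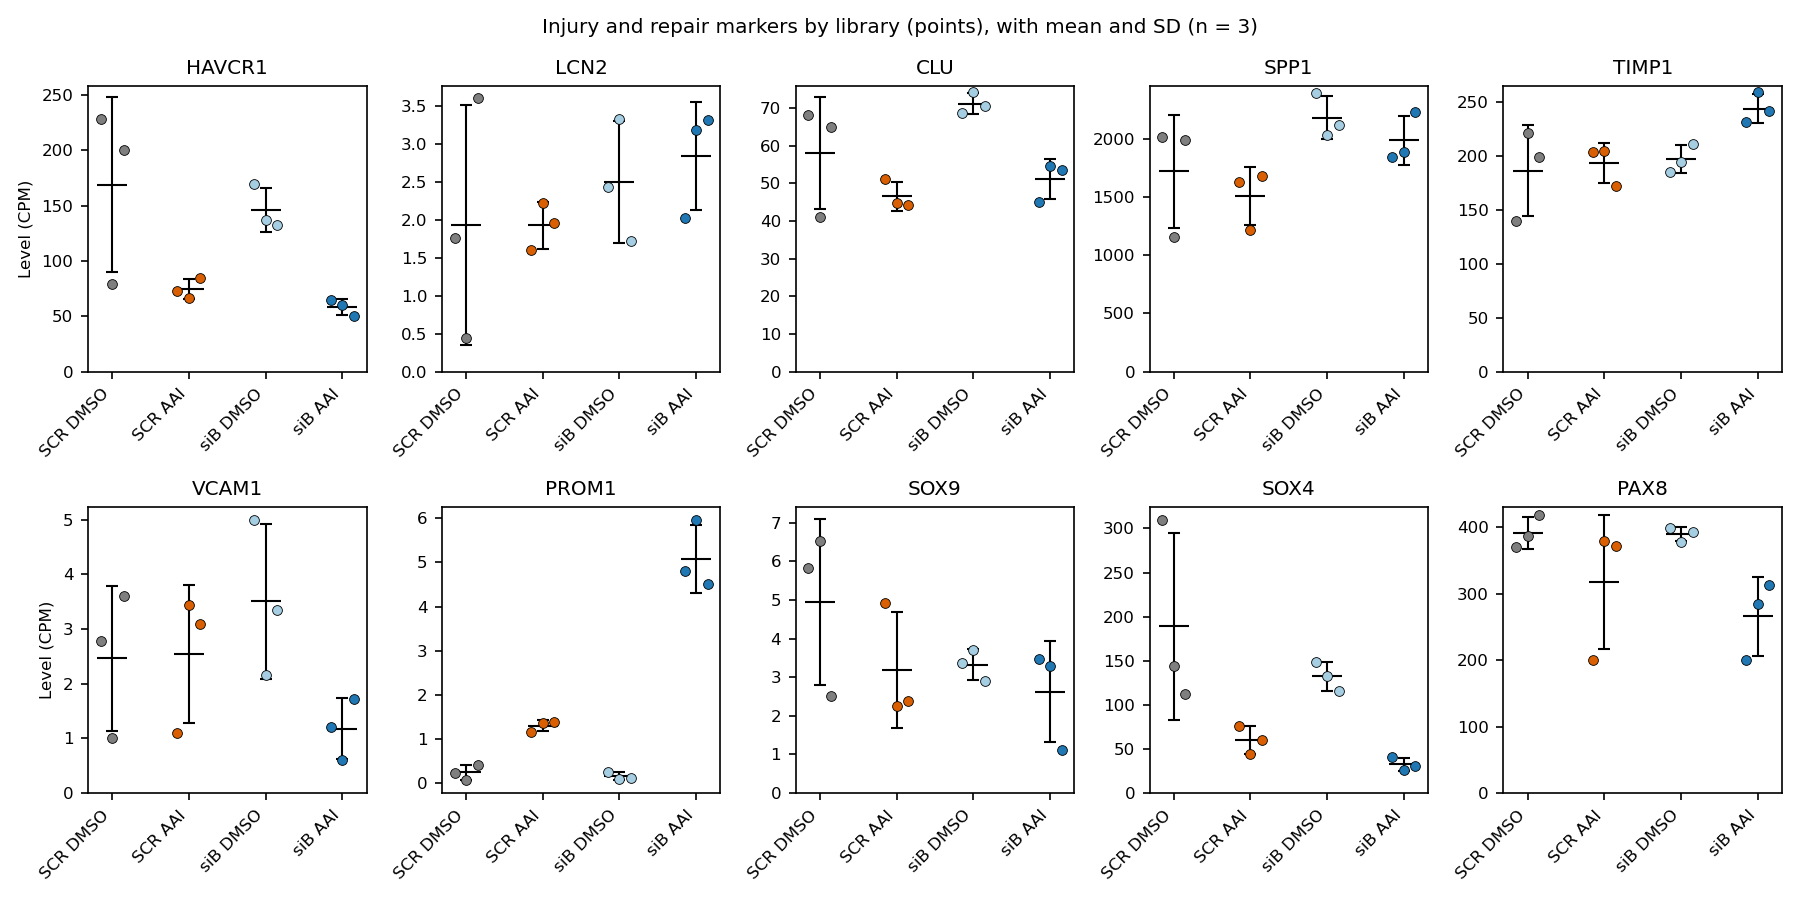
Levels of the 10 markers in CPM in each of the 12 libraries (points), with the mean and SD of each group of 3. HAVCR1 and SOX4 are lower and PROM1 is higher in AAI than in DMSO libraries of siB cells, while LCN2, SOX9 and SPP1 overlap.

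HAVCR1 (chromosome 5, 157026742 to 157069396, minus strand) encodes KIM-1, a phosphatidylserine receptor that appears on injured tubule cells and takes up dying ones. It was lower, not higher, with the toxin. The SCR libraries held 228, 78.9 and 199.9 CPM with DMSO and 73.0, 66.3 and 84.6 CPM with AAI. The low DMSO value, replicate 2, lay inside the AAI range, so these groups overlapped. The siB libraries held 169, 137 and 132 CPM with DMSO and 64.8, 59.9 and 50.2 CPM with AAI, with no overlap. The mean with AAI was 39.9% of that with DMSO in siB cells, a change of -1.31 (SE 0.14, limma adjusted p 6.6e-05) that stayed called in all 14 alternatives tried. In SCR cells the change was -1.04 (SE 0.39, adjusted p 0.134), which was not called. It was called with the replicate number as a block (adjusted p 0.0335), with median-ratio size factors (-1.24, adjusted p 0.0319) and in the fit over all 4 groups (adjusted p 0.0301). Without SCR DMSO replicate 2 it was -1.51 (adjusted p 4.9e-04), and the adjusted p over 14 alternatives ran from 4.9e-04 to 0.322. Under AAI the siB libraries all lay below the SCR ones, by -0.35 (SE 0.17, adjusted p 0.212), which missed the threshold. The 4 group means ran from SCR DMSO to siB DMSO, SCR AAI and siB AAI, and the 2 DMSO groups did not differ beyond their spread.

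LCN2 (chromosome 9, 128149071 to 128153453, plus strand) encodes a secreted siderophore-binding protein used as a urine marker of acute injury. It stayed between 0.444 and 3.604 CPM in the 12 libraries, with 19 to 98 reads each. Group means (± SD, n = 3, in CPM) were 1.93 ± 1.59 for SCR DMSO and 1.93 ± 0.311 for SCR AAI, and 2.50 ± 0.806 for siB DMSO and 2.84 ± 0.716 for siB AAI. All 4 groups overlapped in range with every neighbour. The AAI change was 0.15 in SCR cells (95% interval -0.76 to 1.05) and 0.14 in siB cells (95% interval -0.37 to 0.65), so a change of 2-fold was inside the first interval and outside the second.

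CLU encodes clusterin, a secreted chaperone that rises in stressed tubules. In siB cells it was at 68.8, 74.3 and 70.6 CPM with DMSO and at 45.1, 54.7 and 53.6 CPM with AAI. The groups did not overlap, and the change of -0.47 (SE 0.12, adjusted p 0.00754) passed the test on p but was under the fold limit. It had an adjusted p under 0.05 in 13 of 14 alternatives. In SCR cells CLU was at 68.2, 41.1 and 65.05 CPM with DMSO and 51.1, 44.7 and 44.2 CPM with AAI, a change of -0.28 (SE 0.26, adjusted p 0.525). The low DMSO library was again replicate 2, without which the change was -0.51 (adjusted p 0.109).

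SPP1 (chromosome 4, 87975667 to 87983532, plus strand) encodes osteopontin, a secreted adhesion protein that binds integrins and CD44. It was the most abundant marker in every group. SCR libraries held 2021, 1159.8 and 1989 CPM without the toxin and 1628, 1222 and 1683 CPM with it. The siB libraries held 2396, 2037 and 2125 CPM without the toxin and 1849.7, 1886 and 2233 CPM with it. Every siB library lay above every SCR library of the same treatment. The siB difference was 0.41 (SE 0.18, adjusted p 0.189) under AAI and 0.38 (SE 0.25, adjusted p 1.0) under DMSO, and neither was called. With the replicate block the adjusted p under AAI was 0.0209, still under the fold limit (range over 14 alternatives 0.0209 to 0.477). The AAI change was -0.16 (95% interval -0.83 to 0.51) in SCR cells, or -0.42 (adjusted p 0.245) without SCR DMSO replicate 2, and -0.14 (95% interval -0.40 to 0.12) in siB cells.

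TIMP1 (chromosome X, 47582408 to 47586789, plus strand) encodes an inhibitor of matrix metalloproteinases and lies within the antisense gene SYN1. Levels in SCR cells were 139, 221 and 199 CPM with DMSO and 203, 204 and 171 CPM with AAI, with overlapping groups. Levels in siB cells were 185, 194 and 211 CPM with DMSO and 232, 259 and 241 CPM with AAI. These did not overlap, and TIMP1 rose by 0.31 (SE 0.10, adjusted p 0.0261), under the fold limit. That adjusted p was under 0.05 in 8 of 14 alternatives (range 0.0213 to 0.213). All siB AAI libraries also lay above all SCR AAI libraries, by 0.34 (SE 0.15, adjusted p 0.176), which missed the threshold.

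VCAM1 (chromosome 1, 100719742 to 100739045, plus strand) encodes a cell adhesion receptor induced by NF-kappaB. It was low throughout, with 13 to 117 reads per library. SCR cells held 2.77, 1.005 and 3.604 CPM with DMSO and 1.10, 3.44 and 3.09 CPM with AAI. Knocked-down cells held 5.001, 2.16 and 3.35 CPM with DMSO and 1.20, 0.60 and 1.71 CPM with AAI. The groups overlapped in SCR cells and were apart in siB cells, where VCAM1 fell by 1.04 on the log2 scale (SE 0.27, adjusted p 0.0107). Without siB DMSO replicate 1 or siB AAI replicate 2 the changes were -0.81 (adjusted p 0.0336) and -0.83 (adjusted p 0.0428), both under the fold limit (range of adjusted p over 13 alternatives 0.002 to 0.0499). The SCR change was 0.05 (SE 0.40, adjusted p 0.956), and with median-ratio size factors it was -0.07. The difference between the AAI changes in siB and SCR cells was -1.08 (95% interval -2.24 to 0.07, adjusted p 0.416), so VCAM1 was not shown to respond differently. Under AAI, siB cells were lower than SCR cells by -0.67 (adjusted p 0.189), which had an adjusted p of 0.0121 with the replicate block, under the fold limit. That difference was called without SCR AAI replicate 1 (-1.01, adjusted p 0.0149).

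PROM1 (chromosome 4, 15963076 to 16084378, minus strand) encodes prominin-1 (CD133), a pentaspan protein of membrane protrusions. It rose with AAI in both SCR and siB cells, and under AAI it was higher in siB than in SCR cells. SCR libraries gave 0.231, 0.0701 and 0.404 CPM with DMSO and 1.16, 1.36 and 1.37 CPM with AAI. The siB libraries gave 0.256, 0.0902 and 0.112 CPM with DMSO and 4.80, 5.95 and 4.50 CPM with AAI. The AAI groups overlapped neither with DMSO nor with each other, whereas the DMSO groups overlapped. PROM1 passed the filter on low values through its AAI libraries alone, so among tested genes it had to differ from DMSO.

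In siB cells the PROM1 change was 2.40 (SE 0.17, adjusted p 8.3e-06), called in all 13 alternatives. In SCR cells it was 0.90 (SE 0.17, adjusted p 0.0131), under the fold limit on this scale, and was called with a pseudocount of 0.1 (2.19, adjusted p 0.0186) and with voom on the recovered reads (2.75, adjusted p 0.0271). The adjusted p over the 13 alternatives in SCR cells ran from 0.00131 to 0.0546. On summed reads per total the ratio of AAI to DMSO was 32.7 in siB cells (289 against 10 reads, exact 95% interval 17.5 to 68.9) and 6.31 in SCR cells (86 against 19 reads, exact 95% interval 3.81 to 10.99). These intervals cover counting error only. Under AAI, siB exceeded SCR by 1.40 (SE 0.21, adjusted p 0.00323), called in all 13 alternatives, a ratio of the means of 3.92. The interaction was 1.49 (SE 0.22, adjusted p 0.00805), and PROM1 was the only marker of the 10 past this test, beside 1.61% of 15325 genes. With a pseudocount of 0.1 the interaction was 2.21 (adjusted p 0.129) and with voom 2.17 (adjusted p 0.358), past the threshold in neither (range of adjusted p over 18 alternatives 0.00482 to 0.358).

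Marks of other kidney cell types were higher, along with PROM1, in siB AAI libraries. In SCR cells, where PROM1 also rose with AAI, the loop of Henle and distal nephron sum was higher with AAI without overlap. There the podocyte and endothelial sums overlapped between treatments. The podocyte overlap rested on SCR AAI replicate 2 (0.0453 CPM), with replicates 1 and 3 at 0.387 and 0.274 CPM. The summed level of 6 loop of Henle and distal nephron markers went from 0.898 to 1.62 CPM in siB DMSO libraries to 10.2 to 11.8 CPM in siB AAI libraries, and in SCR cells from 1.45 to 1.69 CPM without AAI to 2.99 to 3.25 CPM with AAI. Of these, 2 had a mean of at least 1 CPM, and the defining marker UMOD averaged 0.00584 CPM. For 2 podocyte markers the sum lay at 0 to 0.167 CPM in siB cells without AAI and 0.911 to 1.57 CPM with AAI, and at 0 to 0.0467 and 0.0453 to 0.387 CPM in SCR cells, with neither reaching a mean of 1 CPM. For 3 endothelial markers it lay at 1.06 to 1.40 CPM in siB cells without AAI and 3.64 to 5.55 CPM with AAI (0.981 to 1.66 and 1.33 to 1.49 CPM in SCR cells), and 1 marker, PECAM1, reached a mean of 1 CPM while KDR averaged 0.00389 CPM. Leukocyte sums (60.1 to 98.1 CPM over all libraries, nearly all CD68) overlapped between the groups. A rise was not particular to these lists. In siB cells 21555 to 22764 genes had a read with AAI, against 18983 to 20057 with DMSO. Of 548 genes called for knockdown under AAI, 454 were raised, as were 223 of the 247 called for the interaction. The part of these marks, or of such a wider rise, in the PROM1 result was not tested. TAPT1, the nearest gene upstream on the same strand (76127 bases away), averaged 17.5 ± 9.93 CPM (SD, n = 3) in SCR cells without AAI and 31.4 ± 9.63 CPM with it, and 17.8 ± 4.44 and 31.3 ± 2.88 CPM in siB cells. Its AAI change was 0.92 in SCR cells (limma adjusted p 0.24, groups overlapping). In siB cells it was 0.80 (adjusted p 0.0045, no overlap), under the fold limit. Any part of TAPT1 in the PROM1 result was not tested. FGFBP2, a gene that overlaps PROM1 on the same strand, averaged 0.458 CPM in siB AAI and 0.0845 CPM in SCR AAI, and how reads were shared between them is not known.

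**Figure D3:**
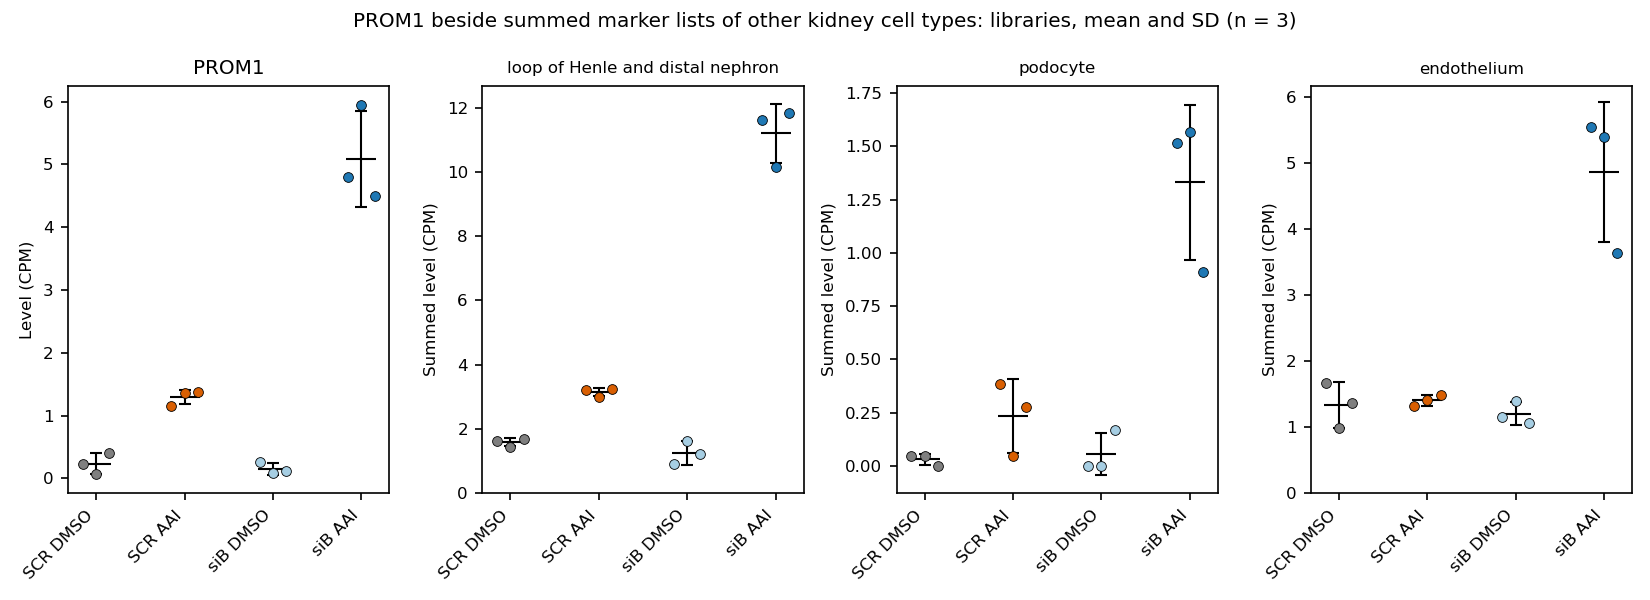
PROM1 (CPM) and the summed CPM of marker lists for loop of Henle and distal nephron, podocyte and endothelium in each library (points), with mean and SD (n = 3). All 4 panels are highest in siB AAI, where PROM1 reached 4.50 to 5.95 CPM.

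SOX9 (chromosome 17, 72121020 to 72126416, plus strand) encodes a transcription factor switched on in tubule cells that regenerate. It was low, with 5.82, 6.52 and 2.50 CPM in SCR cells on DMSO and 4.91, 2.27 and 2.39 CPM on AAI. The siB values were 3.38, 3.70 and 2.90 CPM with DMSO and 3.47, 3.28 and 1.13 CPM with AAI. All groups overlapped. The AAI change was -0.49 in SCR cells (95% interval -1.35 to 0.38) and -0.33 in siB cells (95% interval -0.95 to 0.30), and neither passed the test (adjusted p 0.447 and 0.349).

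SOX4 (chromosome 6, 21593751 to 21598619, plus strand) encodes a transcription factor of progenitor and mesenchymal states. It was the marker most lowered by AAI. SCR libraries held 309.6, 144 and 113 CPM with DMSO and 76.4, 44.4 and 60.3 CPM with AAI. The siB libraries held 149, 132 and 116 CPM with DMSO and 41.0, 26.1 and 30.6 CPM with AAI. No AAI library overlapped a DMSO library, and no siB AAI library overlapped an SCR AAI library. In siB cells the mean with AAI was 24.6% of that with DMSO, and SOX4 fell by 2.01 on the log2 scale (SE 0.17, adjusted p 1.9e-05), called in all 14 alternatives. In SCR cells the mean was 32% of that with DMSO and SOX4 fell by 1.53 (SE 0.39, adjusted p 0.0418). That call was lost with no filter (adjusted p 0.0717), with a mean CPM of at least 5 (adjusted p 0.0644), with voom (adjusted p 0.0511) and without SCR AAI replicates 1, 2 or 3 (adjusted p 0.0867, 0.152 and 0.134), while the fold stayed over 2 in each. It held with the replicate block (adjusted p 0.00506), and the adjusted p over 14 alternatives ran from 0.00503 to 0.152. Under AAI, SOX4 was lower in siB than in SCR cells, where it fell by 0.86 (SE 0.22, adjusted p 0.0319), under the fold limit. This was -1.06 without SCR AAI replicate 2 and -1.04 without siB AAI replicate 1, called in both (adjusted p 0.0312 and 0.0213). The adjusted p was under 0.05 in 9 of 14 alternatives, and was 0.123 and 0.0988 without siB AAI replicates 2 and 3. It ranged from 6.1e-07, with the replicate block, to 0.15, in the fit over all 4 groups. The interaction was -0.48 (SE 0.47, adjusted p 0.767), so the AAI changes in siB and SCR cells were not shown to differ. The highest of the SCR DMSO values, replicate 1, gave the wide spread of that group (189 ± 106 CPM, SD, n = 3).

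PAX8 (chromosome 2, 113215997 to 113278921, minus strand) was high in all groups. SCR libraries held 369.97, 388 and 418 CPM without AAI and 200.54, 379.9 and 372 CPM with AAI. The siB libraries held 399, 378 and 393 CPM without AAI and 199.9, 284 and 313 CPM with AAI. In both AAI groups replicate 1 was lowest. In siB cells the groups did not overlap and PAX8 fell by 0.58 on the log2 scale (SE 0.15, adjusted p 0.0113), under the fold limit, with an adjusted p under 0.05 in 13 of 14 alternatives. In SCR cells the change was -0.36 (SE 0.28, adjusted p 0.451), and the DMSO levels of the SCR and siB cells differed by -0.01 (95% interval -0.31 to 0.29).

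Sums of other marker lists were lower with AAI, as were several of these markers. For 4 fibroblast and pericyte markers the sum lay at 29.4 to 53.7 CPM in SCR cells without AAI and 20.1 to 28.9 CPM with AAI, and at 32.2 to 35.2 and 14.9 to 26.9 CPM in siB cells. In siB cells the 4 epithelial markers summed to 1221 to 1347 CPM without AAI and 1010 to 1088 CPM with AAI, and the 11 proximal tubule markers to 170.2 to 194 CPM against 145 to 147.5 CPM. In SCR cells the epithelial and proximal tubule sums overlapped between treatments. The proximal tubule sum was mostly GGT1 (mean 134 CPM over all libraries) and the fibroblast and pericyte sum mostly COL1A1 (25.9 CPM). Of the tested proximal tubule markers in siB cells, GGT1 and SLC34A1 changed by -0.527 and -0.431 with AAI. The others, SLC5A2 and ANPEP, rose by 1.55 and 1.85, so that sum does not stand for its list. The part of these sums in the lowered markers was not tested.

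With no fold limit, 2 markers passed the adjusted p in SCR cells (SOX4 and PROM1), beside 12.3% of genes. In siB cells 7 did (SOX4, HAVCR1, VCAM1, CLU and PAX8 lower, PROM1 and TIMP1 higher), beside 52.2% of genes. For knockdown under AAI 2 did (PROM1 and SOX4), beside 9.28% of genes. With AAI in SCR and in siB cells, PROM1 was tested through its AAI libraries alone, so it had to differ there.

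**Figure D4:**
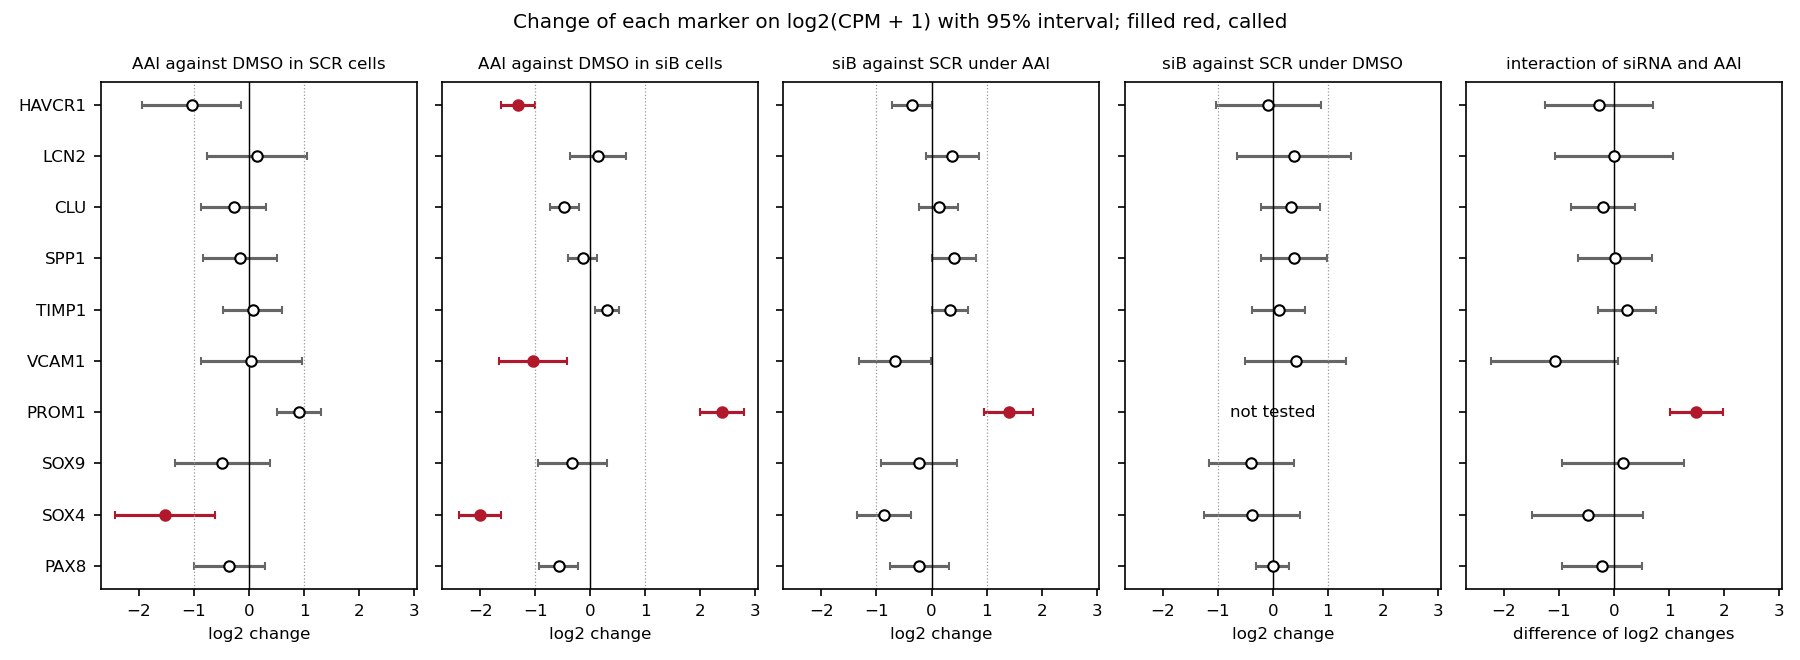
Change of each marker on the log2(CPM + 1) scale with its 95% interval in 4 pairwise comparisons, and the interaction at the right, with called changes in red and dotted lines at 2-fold. SOX4 and PROM1 stand furthest from 0 with AAI, at -2.01 and 2.40 in siB cells, and knockdown under DMSO shows no called marker.

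Genes around the markers were read from 5 lists. Of 28 other injury and failed-repair markers, 25 were tested and most were lower with AAI, 18 in SCR and 20 in siB cells, with a median change of -0.45 and -0.47. In SCR cells 1 was raised and 2 were lowered, where 10.5% of all genes were called. ATF3, a stress-induced transcription factor, rose from 24.0 ± 1.31 to 70.8 ± 8.75 CPM (SD, n = 3; log2 change 1.52, adjusted p 0.00317). SEMA5A, a semaphorin, fell by 1.74 (adjusted p 0.00388) and TPM1, a tropomyosin, fell by 1.21 (adjusted p 0.0168). In siB cells ATF3 rose by 2.05 (adjusted p 7.7e-06) and 4 were lowered, where 19.7% of all genes were called, so in both cell groups the share of the list was near that of all genes. Among the lowered were KRT19, a keratin of simple epithelia (-1.66, adjusted p 6.9e-05), and PDGFB, a growth factor for mesenchymal cells (-1.46, adjusted p 7.1e-04). None of the 25 was called for knockdown under AAI, where 3.67% of all genes were called, so few calls would be seen at that share.

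Of 16 progenitor and developmental genes, 13 were tested, and 0 were called in SCR cells (10.5% of all genes) and 4 in siB cells (19.7% of all genes), all lower with AAI. CD24, a surface protein that marks the same scattered tubule cells as PROM1, went from 361 ± 26.4 to 124 ± 4.31 CPM in siB cells (-1.53, adjusted p 3.8e-06), the opposite direction to PROM1. SOX12, which belongs to the same SOX group as SOX4, changed by -1.13 (adjusted p 1.2e-04). The median of the list was -0.59 in siB and -0.03 in SCR cells.

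Of 17 receptors and partners of the marker proteins, 15 were tested. TIMD4, a phosphatidylserine receptor of the same family as HAVCR1, rose where HAVCR1 did not, from 1.92 ± 0.421 to 7.66 ± 0.86 CPM in SCR cells (1.58, adjusted p 0.00367) and from 1.90 ± 0.45 to 8.70 ± 0.945 CPM in siB cells (1.75, adjusted p 6.7e-05). ITGB3, a subunit of an osteopontin-binding integrin, fell by 1.10 in SCR cells (adjusted p 0.0462), which makes 2 called of 15 there against 10.5% of all genes, and changed by -0.85 in siB cells (adjusted p 0.0138), under the fold limit. No others were called with AAI, which makes 1 called of 15 in siB cells against 19.7% of all genes.

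All 13 genes of the NF-kappaB and STAT3 pathways, which act upstream of VCAM1, LCN2 and TIMP1, were tested and 0 were called in SCR cells, beside 10.5% of all genes. In siB cells, beside 19.7% of all genes, 2 were called with AAI, both raised. They were IL6ST, the shared receptor of the interleukin-6 family (1.47, adjusted p 0.00295), and REL, an NF-kappaB subunit (1.40, adjusted p 8.3e-04). In siB cells 9 genes of the list were lower with AAI, none of them called, and 4 were higher. The median change was -0.285, against 0.10 for all genes tested. In SCR cells 9 were higher and 4 lower, with a median of 0.172, against 0.18 for all genes tested. CEBPD, a transcription factor of acute-phase genes, went from 75.5 ± 8.34 CPM in SCR AAI to 31.1 ± 3.51 CPM in siB AAI libraries (-1.25, adjusted p 0.00166). It was the only 1 of the 13 called for knockdown under AAI, beside 3.67% of all genes.

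Of 26 genes of the mature proximal tubule, 10 were tested in SCR and 15 in siB cells, and the others did not pass the filter on low values. In SCR cells 2 rose with AAI, SLC7A9, a cystine transporter subunit (from 0.169 ± 0.0519 to 4.42 ± 1.05 CPM, 2.20, adjusted p 5.0e-04), and SLC5A2, the glucose transporter SGLT2 (from 3.75 ± 0.646 to 15.1 ± 3.11 CPM, 1.75, adjusted p 0.00443). Of these, SLC7A9 reached 1 CPM in no SCR DMSO library and passed the filter through SCR AAI alone, so it had to differ to be tested. In siB cells 7 rose and 2 fell. Of the 7, 5 reached 1 CPM in AAI libraries alone and so had to differ to be tested, and no count over this list is read as support. The larger rises in siB cells were of SLC7A9 (2.26, adjusted p 3.1e-05), SLC5A1 (SGLT1, 2.08, adjusted p 2.7e-05) and SLC22A2 (the organic cation transporter OCT2, 1.98, adjusted p 3.1e-05). Under AAI, 5 were higher in siB than in SCR cells: SLC22A2 (1.67, adjusted p 0.00152), ANPEP, a brush border peptidase (1.49, adjusted p 0.00375), SLC5A1 (1.40, adjusted p 0.00406), ACSM2A, a mitochondrial acyl-CoA synthetase (1.14, adjusted p 0.0104), and SLC34A3, a phosphate transporter (1.12, adjusted p 0.0298). Of these, SLC22A2, ANPEP and SLC34A3 reached 1 CPM in no SCR AAI library and so passed the filter through siB AAI alone, where they are high. ANPEP averaged 0.426 ± 0.158 CPM in SCR AAI libraries, against 3.08 ± 0.984 CPM in siB AAI. The marks of other kidney cell types that were higher along with PROM1 were so in these same siB AAI libraries, and their part in these rises was not tested.

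**Figure D5:**
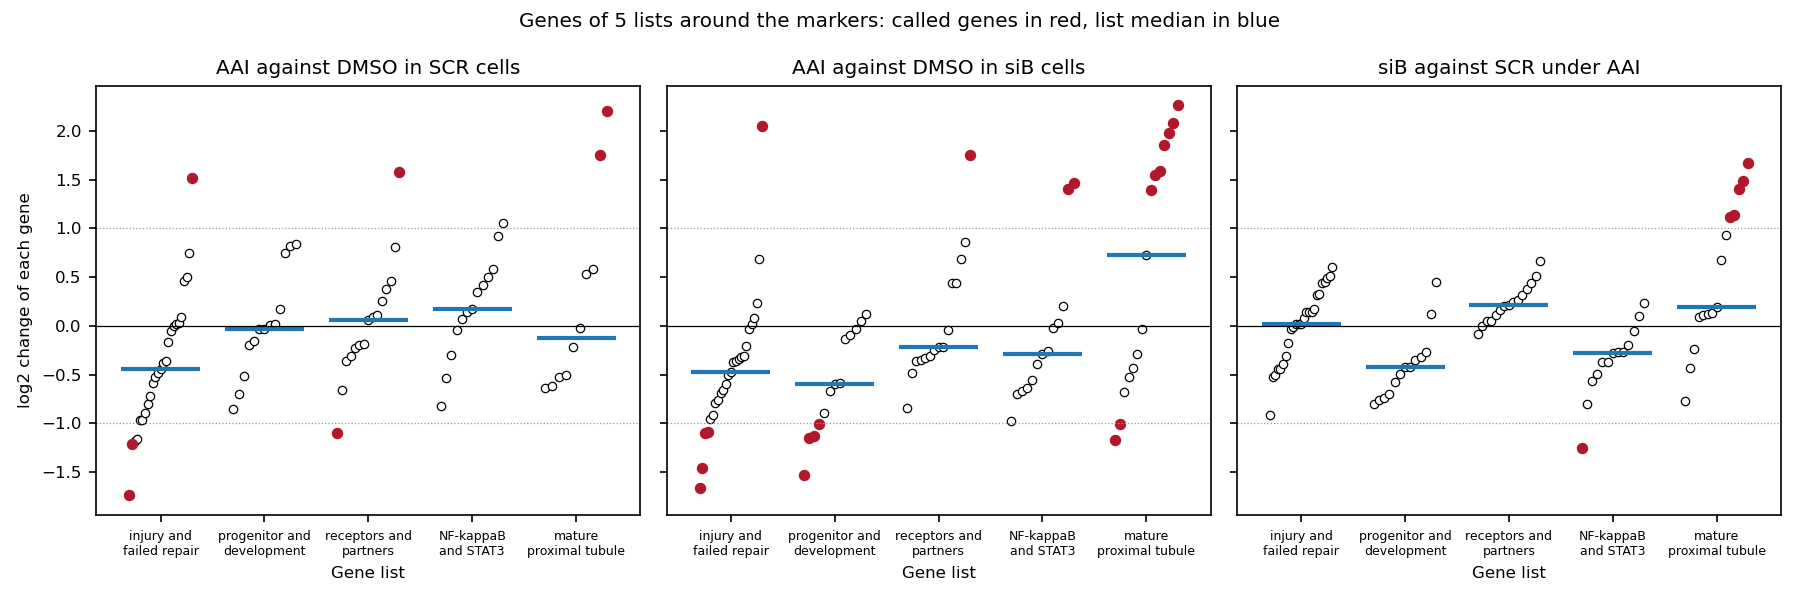
log2 change of each tested gene of the 5 lists in the 3 comparisons that involve AAI, with called genes in red, the list median as a blue line and dotted lines at 2-fold. Most injury and progenitor genes lie under 0 with AAI in siB cells, and the called proximal tubule genes reach 2.26.

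The genes most like each marker over the 12 libraries were sought among 11581 genes with a mean of at least 5 CPM, by Pearson's r of log2(CPM + 1), given as a description since the points share libraries and the AAI contrast. HAVCR1 lay closest to NYAP2 (r 0.99), and SOX4 to MARCKS (r 0.984) and FAM84B (r 0.984). SPP1 lay closest to MCCC1 (r 0.952) and OSBPL1A (r 0.921), and PAX8 to ZMIZ1 (r 0.952) and GLI2 (r 0.952). For CLU they were KYAT3 (r 0.929) and NPR1 (r 0.922), for TIMP1 FKBP1A (r 0.9005) and ICAM3 (r 0.885), and for SOX9, with few reads, GPC2 (r 0.879) and C17orf67 (r 0.862). LCN2, VCAM1 and PROM1 were under 1 CPM in at least 1 library and were not searched.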

How the data were processed

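Using BioJupies, the authors mapped paired-end reads on hg38 and counted reads per gene (UCSC annotation). The names of the aligner and the setting for strand are not given in the sources used here. The authors deposited log10 values, log10 of CPM plus 1, with no further scaling between libraries. In each library 10 to the value minus 1 summed to 1000000 and took whole multiples of 1 read (100% of values within 0.01 of a whole number), so CPM and reads were recovered. No 2 replicates agreed within sampling noise (chi-square per degree of freedom at least 4.23).

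Groups were compared with limma 3.58.1 in R 4.3.3 (linear models, moderated with a variance trend) on log2(CPM + 1), on each pair of groups alone, over genes at 1 CPM or more in 3 or more fitted libraries, with Benjamini-Hochberg correction over all genes tested. The interaction used all 12 libraries. Scripts were tested on simulated data with 200 changed genes. Levels per kb used the exon union of GENCODE release 44, matched by symbol, and 28 names turned into dates were not matched. The markers and lists were chosen with earlier results of these data known. Named were the markers, POLR2A, the 3 largest called changes per list with AAI, any list gene called for knockdown under AAI, and the 2 genes most like each marker. Some genes picked by this rule are not reported here.

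Replicate numbers were checked by correlating deviations from group means across 15325 genes. Every pair was over 0.1 for AAI in SCR cells (0.422, 0.473 and 0.338) and for knockdown under AAI (0.614, 0.318 and 0.292), so these were read as paired from the data, since the labels give no source for the numbers. Libraries with different numbers were not correlated, so the limit of 0.1 cannot show which comparisons were paired. The main fits did not use this pairing, and it entered only as the replicate block among the alternatives. With that block limma called 1917 genes for AAI in SCR cells in place of 1489, HAVCR1 among them (adjusted p 0.0335).

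Alternatives were median-ratio size factors, voom, a pseudocount of 0.1, genes with a mean of 5 CPM or more, no filter, no variance trend, a replicate block, all 4 groups in the fit, no fold limit and leaving out each library over the genes tested with all libraries.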

Additional observations from a re-analysis of the deposited data

Results flagged for a closer look

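By the limma interaction test, the AAI change in siB cells minus that in SCR cells passed the adjusted p for 4 of the genes named. The difference was 1.49 for PROM1 (adjusted p 0.00805), 1.81 for SLC22A2 (adjusted p 0.00367), 1.62 for ANPEP (adjusted p 0.011) and 1.44 for SLC5A1 (adjusted p 0.0114). All 4 were under 1 CPM in every DMSO library. SLC22A2 and ANPEP reached 1 CPM in the siB AAI libraries alone, SLC5A1 in these and 1 SCR AAI library, and PROM1 in the AAI libraries alone, so the filter on low values favoured a difference among the genes tested, and these p-values are no independent support. With voom on the recovered reads none of the 4 passed (adjusted p 0.358, 0.213, 0.276 and 0.232 in the same order), nor did any of the genes tested. With a pseudocount of 0.1, SLC22A2 passed (adjusted p 0.0398) and PROM1, ANPEP and SLC5A1 did not (adjusted p 0.129, 0.064 and 0.0695). With groups of 3 libraries, single libraries were not tested as outliers.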

How the results depend on the processing

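Of 717 values of a marker's change under an alternative, 665 kept their direction and their side of the threshold, 10 lost a call, 9 gained one and 33 changed sign, and no called change changed sign. Of 160 alternative group levels, 158 moved by less than the spread between replicates, and the 2 that moved further (TIMP1 in siB AAI and PAX8 in SCR DMSO) did so with median-ratio size factors. The cause was not tested for any value here, except that a stricter filter leaves fewer genes.

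In SCR cells AAI called 1 of 10 markers and 1489 genes. Markers called were 2 with a pseudocount of 0.1, median-ratio size factors, the replicate block, all 4 groups in the fit or no fold limit, and 0 with no filter or with a mean CPM of at least 5, where 724 genes were called. Without 1 library the range was 0 to 2 markers and 875 to 1984 genes, with 2 markers without SCR DMSO replicate 2, 0 without each SCR AAI replicate, and 973, 957, 909 and 875 genes without SCR DMSO replicate 3 and SCR AAI replicates 1, 2 and 3. In siB cells, where 4 markers and 2944 genes were called, a mean CPM of at least 5 gave 2 markers and 1595 genes, and no fold limit 7 markers and 7794 genes. For knockdown under AAI, with 1 marker and 548 genes, these gave 0 and 216, and 2 and 1387. Without 1 library that comparison ran from 1 to 2 markers (2 without SCR AAI replicates 1 and 2 or siB AAI replicate 1) and from 188 genes, without SCR AAI replicate 3, to 761. For knockdown under DMSO, 6 genes were called with all 4 groups in the fit, and 0 by voom. The interaction gave 1 marker and 247 genes, and 46 genes with a pseudocount of 0.1, 625 with no filter, 389 with the replicate block, and 0 with a mean CPM of at least 5 or voom. Its marker, PROM1, became 0 markers with a pseudocount of 0.1 or voom and was not tested with a mean CPM of at least 5. Without 1 library the interaction ran from 81 genes, without siB DMSO replicate 3, to 1010, without SCR DMSO replicate 2. It was 115 without SCR DMSO replicates 1 or 3, 135 and 103 without SCR AAI replicates 2 and 3, and 96 and 82 without siB DMSO replicates 1 and 2.

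The changes whose sign turned were all uncalled. With median-ratio size factors, AAI in SCR cells gave VCAM1 -0.069 and TIMP1 -0.13, and the interaction of LCN2 was 0.011. Leaving out 1 library gave these log2 ranges. For AAI in SCR cells LCN2 ran from -0.29 to 0.55, VCAM1 from -0.31 to 0.39 and TIMP1 from -0.12 to 0.21. In siB cells LCN2 ran from -0.025 to 0.31 and SOX9 from -0.52 to 0.02027. For knockdown under AAI SOX9 ran from -0.42 to 0.12. For knockdown under DMSO HAVCR1 ran from -0.55 to 0.21, LCN2 from -0.051 to 0.79, SOX4 from -0.68 to 0.045, TIMP1 from -0.091 to 0.24 and PAX8 from -0.046 to 0.041. For the interaction HAVCR1 ran from -0.56 to 0.20, LCN2 from -0.41 to 0.43, SPP1 from -0.12 to 0.28, CLU from -0.33 to 0.033 and SOX9 from -0.048 to 0.51.

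With the replicate block, the call of HAVCR1 in SCR cells was gained and no other call of a marker changed. For knockdown under AAI the lowest limma adjusted p of any gene was 2.1e-40 with the block and 5.8e-04 in the main fit. The block's p-values there (SOX4, VCAM1 and SPP1) are thus given as a description only. Deviations of same-numbered libraries correlated at 0.21, 0.0259 and 0.195 for AAI in siB cells and at 0.726, 0.587 and -0.193 for knockdown under DMSO, so these share a number only, and the block called 2950 and 0 genes there. Depth limits LCN2, VCAM1, SOX9 and PROM1, which had at most 279 reads in a library.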
